A study of Cavia porcellus with 72 samples.

Results

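The genes described here are the subunits, activators and assembly factors of the proteasome and the E2 ubiquitin conjugating enzymes. They were taken by symbol from 3 tables of hippocampal RNA counts: every gene whose symbol begins with PSMA to PSMG followed by a number, the gene POMP, and every gene whose symbol begins with UBE2. The rule found 61 genes in each table, 39 of them PSM genes or POMP and 22 of them UBE2 genes, among 11651 genes in F1, 11716 in F2 and 11663 in F3. One of the 39, PSMC3IP, carries a PSM symbol but is a recombination cofactor and no part of the proteasome. UBE2L5P carries the symbol of a copy of UBE2L3, so its reads may belong to that near-identical gene.

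The tissue was the hippocampus of female Dunkin-Hartley guinea pigs at postnatal day 40. In the sGC groups the founding (F0) pregnancy was treated with betamethasone, a synthetic glucocorticoid, and in the control groups with vehicle. Only F0 was treated, and F2 and F3 descended through the paternal line. F1 held 6 control and 5 sGC animals, F2 held 6 and 6, and F3 held 6 and 7, each with 1 library. A comparison of sGC with control asks, within each generation, whether transcript levels differed between the lineages.

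The proteasome is the barrel-shaped protease that degrades proteins tagged with ubiquitin. Its 20S core stacks alpha rings, which form the gate, around beta rings, which hold the active sites, and a 19S cap, built of a ring of ATPases and of non-ATPase subunits, binds, deubiquitinates and unfolds the substrate. The tag is placed by an E1 activating enzyme, an E2 conjugating enzyme and an E3 ligase, and in neurons this pathway is known for its part in the turnover of synaptic proteins. In interferon-exposed and immune cells 3 beta subunits are exchanged for the inducible PSMB8, PSMB9 and PSMB10.

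The libraries held 13507449 to 19767033 counted reads, of which 71660 to 108562 fell on the 61 members. All 61 passed the filter on low counts in every generation. No library pair within a group agreed to within sampling noise, with chi-square values of 2.105 to 28.74 per degree of freedom. Some sGC libraries stood apart. F1 sGC replicate 4 had 17.32 to 28.74 with the other F1 sGC libraries, which had 5.221 to 11.28 among themselves. F3 sGC replicate 6 had 7.286 to 16.52 with the other F3 sGC libraries, which had 2.105 to 7.962 among themselves, so these ranges overlapped. F3 sGC replicate 5 was closer to replicates 1, 2, 3, 4 and 7 (2.105 to 3.222) than these were to each other (4.144 to 7.962), and what it shares with them is not stated in the labels. Markers of excitatory neurons and of astrocytes each summed to between 6469 and 12180 counts per 1e+06 reads (CPM) in every library. Libraries numbered 32 to 36 in the labels lie outside the runs of numbers of their generations, and all are sGC animals (F1 sGC replicates 4 and 5, F2 sGC replicate 6, F3 sGC replicates 5 and 6). Whether they are a batch is not stated, so results are also given without them. In whole tissue, fewer cells of a type and less RNA per cell cannot be told apart.

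The 61 members spanned a wide range of levels. PSMD2, a large 19S scaffold subunit, had the most counts, with control means of 253.6, 248.3 and 257.5 CPM in F1, F2 and F3. UBE2L6, the E2 of the interferon-induced modifier ISG15, had the fewest, at 0.699, 0.804 and 0.731 CPM. CPM is not divided by transcript length, so these values do not rank transcripts per cell. PSMB8, PSMB9, PSMB10, UBE2U and UBE2L6 lay under 10 CPM in the controls of every generation, and PSMC3IP did so in F1 and F3. The median SD of a member between control animals was 4.05% of its mean in F1, 3.91% in F2 and 5.21% in F3. This spread alone does not give the size of difference that the test could call, and members under 10 CPM rest on fewer reads.

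In F1, proteasome and E2 transcripts were mostly lower in sGC animals, by small amounts. UBE2S, an E2 that extends ubiquitin chains on substrates of the anaphase promoting complex, and PSMA6, a subunit of the alpha ring, passed the test, and both fell. These are 2 of 61 members called, where 2.08% of the 11377 genes tested were called and 0.457% were called lower. In all, 49 of 61 members had a lower mean in sGC animals, against 51.7% of all genes, and the median log2 fold change was -0.06 for members and -0.0055 for all genes. Of the members, 19 were lower with an unadjusted p under 0.05 and 0 were higher. At that level 9.06% of all genes were lower and 10.5% higher. Members are not independent of each other, since many of the subunits tended to vary together from animal to animal within groups. A few libraries can thus shift many members at once. These counts, and all counts of members below, describe a shared direction and do not test it.

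UBE2S measured 36.3, 39.0, 36.9, 35.6 and 39.3 CPM in the F1 sGC replicates 1 to 5. The 6 F1 controls had a lowest value of 41.01, a median of 43.0 and a highest value of 46.3 CPM. All 5 sGC animals thus lay below every control. Control animals averaged 43.0 ± 1.88 CPM (SD, n = 6), sGC animals averaged 37.4 ± 1.65 CPM (SD, n = 5), and the log2 fold change was -0.20 (SE 0.045, adjusted p = 0.0406 in edgeR).

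PSMA6 measured 69.1, 76.0, 74.2, 67.2 and 73.4 CPM in the F1 sGC replicates 1 to 5, against 78.0, 81.2 and 86.1 CPM for the lowest, median and highest control. Here too the groups did not overlap. The log2 fold change was -0.17 (SE 0.041, adjusted p = 0.0481 by edgeR). Both calls sat near the threshold. Each was lost when any 1 of the 11 F1 libraries was left out, with adjusted p of 0.0522 to 0.0907 for UBE2S and 0.0505 to 0.103 for PSMA6, while the fold changes stayed between -0.22 and -0.15. Without F1 sGC replicate 4 they were -0.18 (adjusted p = 0.0536) for UBE2S and -0.15 (adjusted p = 0.0540) for PSMA6. Without the libraries numbered 32 to 36 they were -0.20 (adjusted p = 0.0724) and -0.15 (adjusted p = 0.107).

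**Figure D1:**
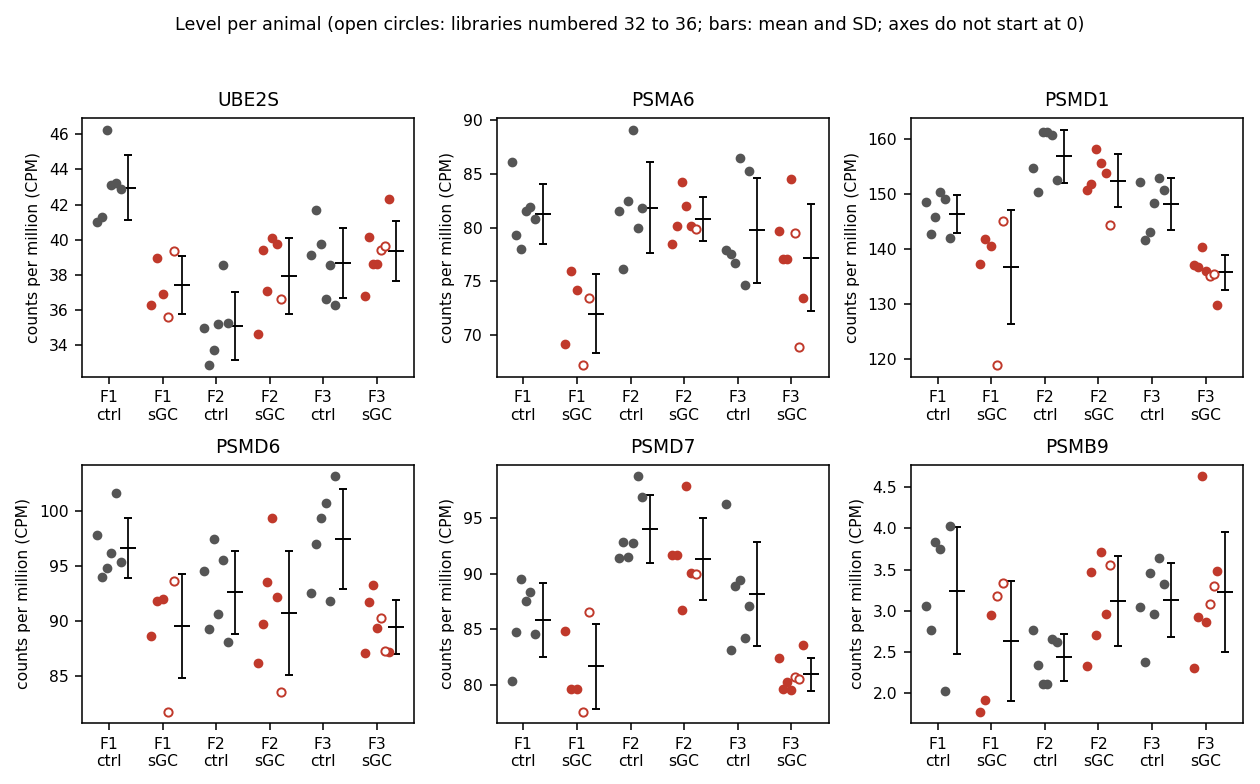
Level of 6 members in each animal, in CPM, by generation and group; open circles are libraries numbered 32 to 36, and the bars give the mean and SD of each group. UBE2S and PSMA6 separate the groups in F1, PSMD1 separates them in F3, and PSMD6 and PSMD7 lie lower in F3 sGC animals with some overlap.

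The constitutive beta subunits shared one direction in F1. All 5 that were measured (PSMB1, PSMB2, PSMB3, PSMB4 and PSMB7) had lower means in sGC animals, with log2 fold changes of -0.16 to -0.11 and a median of -0.13, but none passed the test after adjustment. PSMB7, which carries the trypsin-like active site, had a control mean of 120.4 ± 2.27 CPM (SD, n = 6) and an sGC mean of 109.5 ± 6.29 CPM (SD, n = 5), with an adjusted p of 0.0879. PSMB3, a subunit of the beta ring without an active site, went from 59.2 ± 1.48 to 54.1 ± 1.25 CPM (adjusted p = 0.0697). The groups of PSMB1, PSMB3 and PSMB7 did not overlap. The alpha ring was more mixed: PSMA5 and PSMA7 had lower means beside PSMA6, while PSMA3 and PSMA4 had log2 fold changes of 0.03 and 0.01. The other 2 active-site subunits, PSMB5 and PSMB6, were not analysed here.

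The 19S cap had the same direction. Of 14 measured subunits, 13 had lower means, with a median log2 fold change of -0.10, and 0 passed the test; 6 of them had an unadjusted p under 0.05. All 5 ATPases were lower, from -0.07 for PSMC5 to -0.15 for PSMC4 (adjusted p = 0.0993). PSMD14, the deubiquitinase of the lid, had means of 85.2 and 80.9 CPM (log2 fold change -0.08, adjusted p = 0.469). PSMD12, another lid subunit, was the exception with 182.1 CPM in controls and 187.04 CPM in sGC animals.

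The 6 assembly factors all had lower means in F1 sGC animals, from -0.19 for PSMG2 to -0.01 for POMP, and 0 passed the test. POMP, the chaperone that completes the 20S core, had nearly equal means of 100.6 and 100.1 CPM. The activators and the inhibitor of the 20S core had a median log2 fold change of 0.02, with PSME1 at -0.06, PSME2 at 0.02, PSME3 at -0.04, PSME4 at 0.07 and PSMF1 at 0.02, and none passed the test. PSMB8, PSMB9 and PSMB10 had log2 fold changes of 0.01, -0.30 and -0.06 with SEs of 0.22, 0.21 and 0.12, which are too wide to resolve changes of the size seen in the constitutive subunits.

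Among the 18 E2 enzymes of ubiquitin, 15 had lower means in F1 sGC animals, and the list's median was -0.04 on the log2 scale. UBE2QL1, an E2-like gene, had means of 162.2 and 147.1 CPM (log2 fold change -0.14, adjusted p = 0.189). UBE2A, an E2 of histone H2B ubiquitination that has been tied to intellectual disability, had means of 174.1 and 163.7 CPM (adjusted p = 0.146) and groups that did not overlap. Its close relative UBE2B had 72.4 and 69.3 CPM with overlapping groups. UBE2K, UBE2R2 and UBE2O were the E2 enzymes with higher means, at log2 fold changes of 0.05, 0.04 and 0.0052. UBE2D3 had -0.03.

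In all, 9 members had groups that did not overlap in F1, each lower in sGC animals: PSMA6, PSMB1, PSMB3, PSMB7, PSMD6, PSMD13, UBE2A, UBE2S and UBE2Z. Over all genes tested 4.41% had groups that did not overlap. The share of counted reads on the 61 members was 0.548 to 0.558% in F1 controls and 0.511 to 0.532% in F1 sGC animals, again without overlap. Cell type markers in the same comparison differed in direction from list to list, and their summed ranges overlapped between the groups. The 6 excitatory neuron markers summed to 9264 to 10330 CPM in controls and 9367 to 11900 CPM in sGC animals. Of these, 4 had lower means, 2 had higher means and 0 were called. The 6 meningeal fibroblast markers summed to 164 to 356 CPM in controls and 145 to 216 CPM in sGC animals, with 2 of 6 called lower. The 6 astrocyte markers summed to 6469 to 8488 and 7500 to 12180 CPM, all 6 with higher means and 0 of 6 called. The 3 measured oligodendrocyte markers summed to 1016 to 1396 CPM in controls and 885 to 1262 CPM in sGC animals, all 3 with lower means and 0 called. The 6 measured microglia markers summed to 191.1 to 242.4 and 227 to 317.3 CPM, 5 of them with higher means and 0 called. Their part in the proteasome and E2 values was not tested.

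**Figure D2:**
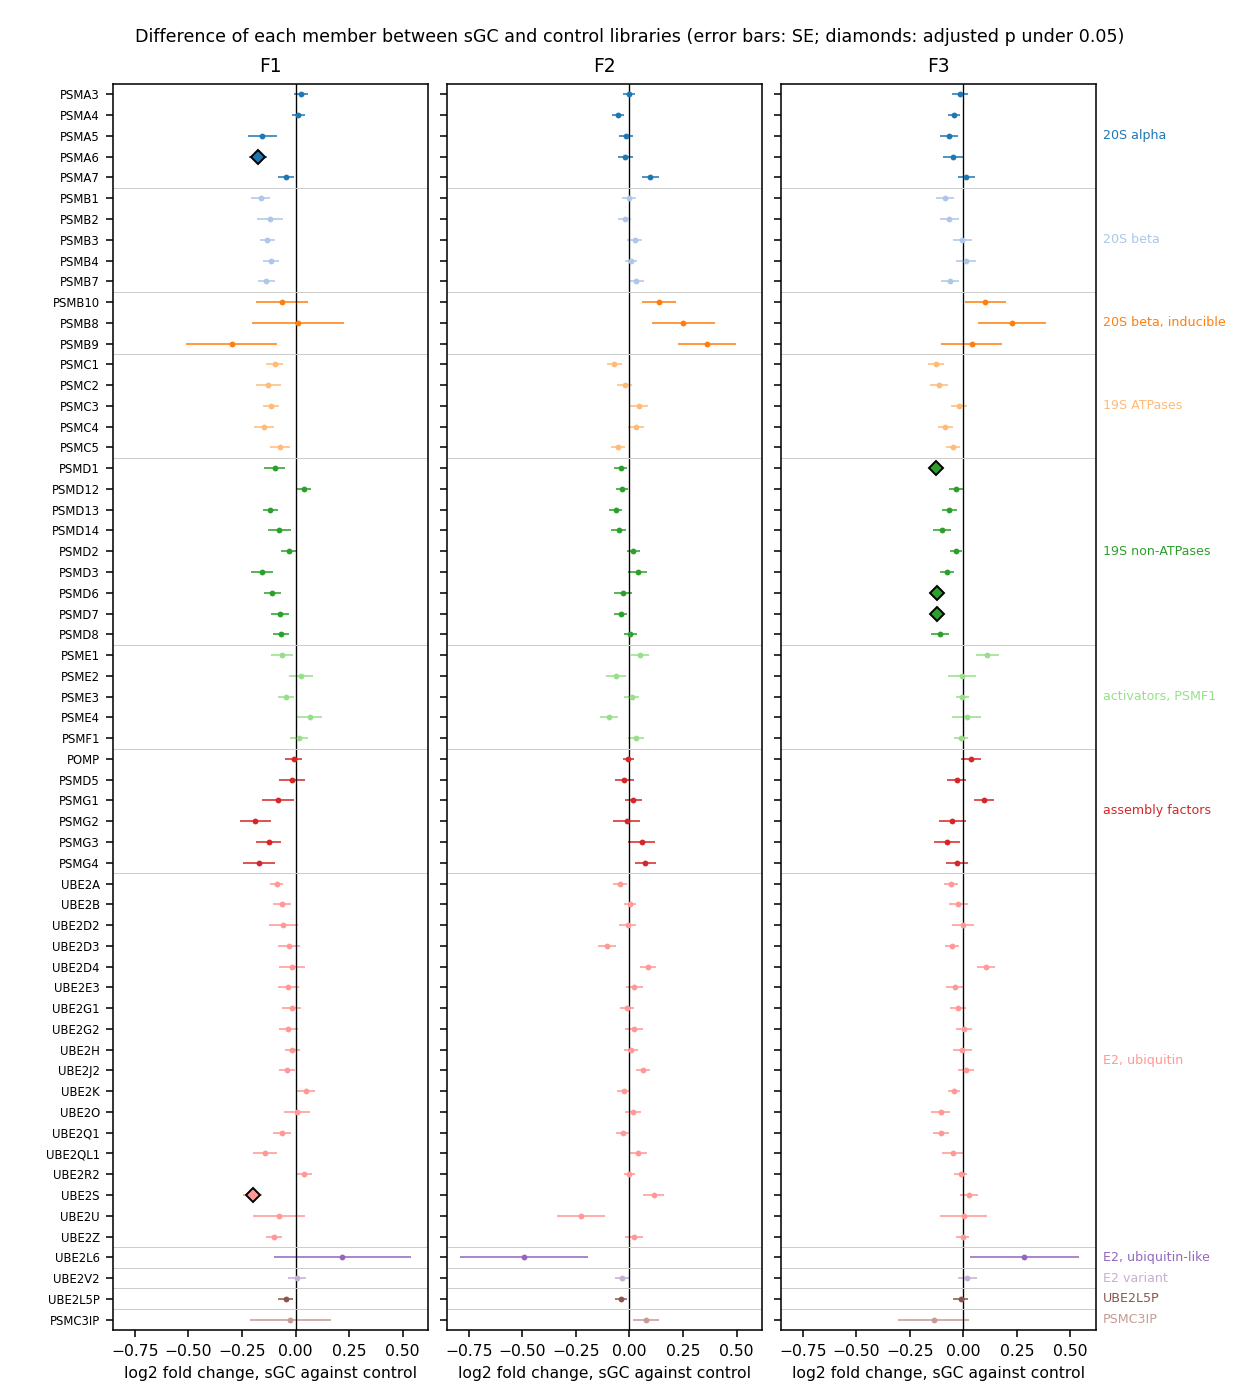
Log2 fold change of 60 of the 61 members, sGC against control, in F1, F2 and F3, grouped by role, with bars of 1 SE; diamonds mark members with an adjusted p under 0.05. The constitutive beta subunits and all 19S subunits but PSMD12 lie left of 0 in F1, the 19S subunits do so again in F3, and in F2 most members lie within 0.2 of 0.

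In F2 the members showed no such direction. By edgeR's quasi-likelihood test 0 of 61 were called, as for 0% of the 11414 genes tested. The smallest adjusted p of a member was 0.711. The likelihood ratio test and DESeq2 also called 0 members. At an unadjusted p under 0.05, 4 members were higher (PSMA7, PSMB9, UBE2D4 and UBE2S) and 2 lower (PSME4 and UBE2D3), where 3.74% of all genes were higher and 2.9% lower. Of the members, 32 had lower and 29 higher means (50.3% of all genes were lower), and their median log2 fold change was -0.001. No member had groups that did not overlap (0.403% of all genes had). The 5 constitutive beta subunits, at -0.13 in the median in F1, lay between -0.02 and 0.03 here, and the 14 subunits of the 19S cap had a median of -0.03.

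All 3 measured inducible beta subunits had higher means in F2 sGC animals. PSMB9 had controls between 2.11 and 2.76 CPM (median 2.48) and sGC animals between 2.32 and 3.71 CPM (median 3.21), a log2 fold change of 0.36 with SE 0.14 and adjusted p = 0.711. PSMB8 had means of 1.84 and 2.19 CPM (0.25, adjusted p = 0.773), and PSMB10 5.65 and 6.22 CPM (0.14, adjusted p = 0.773). Each gene overlapped between groups. The mean over the 3 genes lay 0.14 to 0.33 log2 units above the control mean in the 6 sGC libraries and between -0.11 and 0.11 in the 6 controls. These levels rest on 21 to 103 reads per gene and library. The 7 measured interferon response genes had 0 calls in F2 and a median log2 fold change of 0.04. Their summed levels were 387 to 427 CPM in controls and 383 to 443 CPM in sGC animals. UBE2L6 went the other way in F2, with the largest log2 fold change of any member (-0.49, adjusted p = 0.773 by edgeR). Its control mean was 0.804 CPM, so it rests on few reads. Of the activator subunits, PSME2 had -0.06 and PSME1 had 0.05 in F2. In F3 the 3 inducible subunits again had higher means in sGC animals (0.23, 0.04 and 0.10 for PSMB8, PSMB9 and PSMB10), with 0 called and overlapping library means.

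In F3 the members that passed the test all belonged to the 19S cap. PSMD1, PSMD6 and PSMD7 fell, and all 3 are non-ATPase subunits of the cap. These are 3 of 61 members called, where 5.04% of the 11359 genes tested were called and 2.87% were called lower, so the share of members called was near that of all genes. Of the members, 45 had lower means, against 48.3% of all genes, and the median log2 fold change was -0.03 (0.0048 for all genes). At an unadjusted p under 0.05, 12 members were lower and 1, UBE2D4, was higher, where 10.8% of all genes were lower and 10.3% higher.

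PSMD1, the scaffold at the base of the cap, measured 141.8, 149.5 and 153.0 CPM for the lowest, median and highest of the 6 F3 controls. The 7 sGC animals had 129.9, 136.1 and 140.5 CPM, all below every control, and PSMD1 was the only member with separate groups in F3 (2.71% of all genes had). Control animals averaged 148.2 ± 4.77 CPM (SD, n = 6), sGC animals averaged 135.9 ± 3.16 CPM (SD, n = 7), and the log2 fold change was -0.13 (SE 0.029, adjusted p = 0.0204 by edgeR). The call held in 12 of 13 fits that left out 1 library. It was lost without F3 sGC replicate 5 (adjusted p = 0.0546), where 0 members and 2.54% of all genes were called, and without the libraries numbered 32 to 36 (log2 fold change -0.12, adjusted p = 0.0756).

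PSMD6, a subunit of the lid, had controls of 91.9, 98.2 and 103.2 CPM (lowest, median, highest) and sGC animals of 87.1, 89.4 and 93.3 CPM. PSMD7, the lid partner of the deubiquitinase PSMD14, had controls of 83.1, 88.0 and 96.2 CPM and sGC animals of 79.6, 80.5 and 83.6 CPM. In both genes the highest sGC value lay above the lowest control, and all 7 sGC animals lay below the control mean. The log2 fold changes were -0.12 for each (SE 0.034 and 0.035, adjusted p = 0.0463 and 0.0493). They held in 3 and 2 of 13 fits that left out 1 library, and in neither the fit without F3 sGC replicate 5 (adjusted p = 0.0886 and 0.0993) nor the one without replicate 6 (adjusted p = 0.0613 and 0.0590). PSMD6 also had groups that did not overlap in F1, where its log2 fold change was -0.11 (adjusted p = 0.160), and PSMD7 stood at -0.07 in F1 (adjusted p = 0.347). PSMD1 in F1 had -0.10 (adjusted p = 0.270).

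All 14 measured subunits of the 19S cap had lower means in F3 sGC animals, and 9 of them had an unadjusted p under 0.05. Their log2 fold changes ran from -0.13 to -0.02 with a median of -0.09. PSMC1, one of the ATPases, had means of 98.8 and 90.5 CPM (-0.13, adjusted p = 0.0562), PSMD14 had 88.2 and 82.4 CPM (-0.10, adjusted p = 0.184), and PSMC5 had 106.6 and 103.2 CPM (-0.05, adjusted p = 0.460). The mean over the 14 genes lay between -0.15 and -0.05 in the 7 sGC libraries and between -0.04 and 0.05 in the 6 controls. In F1 it lay between -0.18 and -0.05 in sGC libraries and between -0.03 and 0.04 in controls. Without the libraries numbered 32 to 36 the median over the 14 genes was -0.08 in F3 and -0.07 in F1, with 14 and 13 of them lower. Without F1 sGC replicate 4 alone the F1 median was -0.07 with 13 lower, and in F3 it was -0.09 with 14 lower without replicate 5 and -0.08 with 13 lower without replicate 6.

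**Figure D3:**
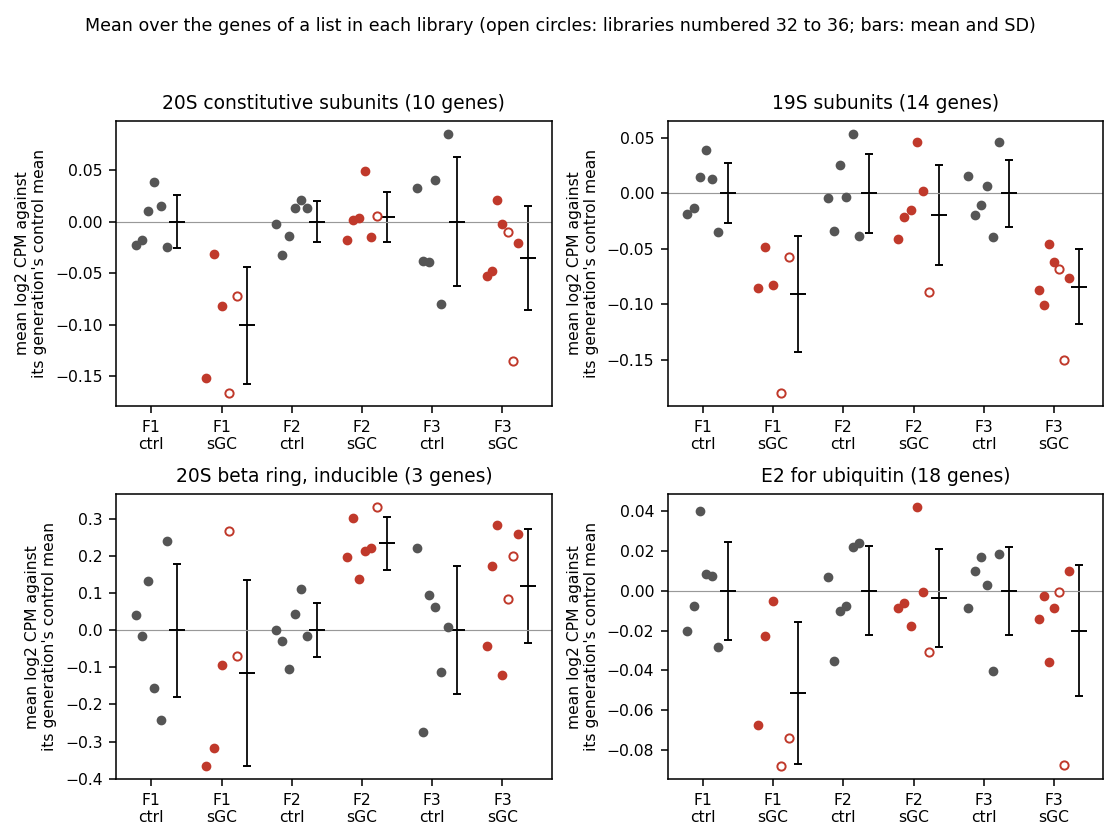
Mean log2 CPM over the genes of 4 role lists in each library, set against the control mean of its generation; open circles are libraries numbered 32 to 36, and bars give the mean and SD of a group. The 19S means of sGC libraries lie below all controls in F1 and F3, the 20S means do so in F1, and the inducible beta means lie above all controls in F2.

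The 20S core was closer to 0 in F3. Its 10 constitutive subunits had a median log2 fold change of -0.05, with 8 of 10 lower and 0 called. PSMB7 had 116.9 and 111.9 CPM (-0.06, adjusted p = 0.425), and PSMA6, called in F1, had 79.7 and 77.2 CPM (-0.05, adjusted p = 0.616). The library means of the 20S genes overlapped between the groups.

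The regulators and assembly factors did not share a direction in F3. PSME1, a subunit of the interferon-inducible 11S activator, had means of 41.4 and 44.8 CPM (0.11, adjusted p = 0.254), while PSME2, its partner in the same ring, had 26.3 CPM in both groups. PSME3, PSME4 and PSMF1 lay between -0.01 and 0.02. POMP had 0.04, and PSMG1, which pairs with PSMG2 to start the alpha ring, had 0.10 (adjusted p = 0.265).

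The E2 enzymes of ubiquitin had a median log2 fold change of -0.02 in F3 with 13 of 18 lower and 0 called. UBE2S, called in F1, had 38.7 and 39.3 CPM (0.03, adjusted p = 0.776). UBE2D4, a member of the broad-acting UBE2D family, had 80.0 and 86.2 CPM (0.11, adjusted p = 0.159). Without F3 sGC replicate 6, UBE2D4 was called higher (0.14, adjusted p = 0.0309 by edgeR), in a fit that called 5.63% of all genes. UBE2A stood at -0.06, UBE2QL1 and UBE2D3 at -0.05, UBE2K at -0.04 and UBE2B at -0.02, and 0 of these passed the test.

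Several genes that act with the proteasome fell in F3. Of 17 measured partners, a list of shuttle proteins, bound deubiquitinases and ligases, 5 were called lower and 0 higher. Over all genes, 5.04% were called and 2.87% were called lower. In all, 12 of the 17 had lower means and 5 had higher means. The list was chosen with earlier results of these data known, so these counts describe it and do not test it. UBQLN2, a shuttle that carries ubiquitinated proteins to the proteasome and is mutated in a form of motor neuron disease, measured 178.2 to 185.0 CPM in controls and 146.9 to 160.9 CPM in sGC animals (log2 fold change -0.21, SE 0.028, adjusted p = 0.00195). Its relative UBQLN1 went from a mean of 312.3 to 285.0 CPM (-0.13, adjusted p = 0.0103). USP14, the deubiquitinase that docks on the 19S cap, measured 110.0 to 119.5 CPM in controls and 99.5 to 104.5 CPM in sGC animals (-0.17, SE 0.028, adjusted p = 0.00483). In these 3 genes the groups did not overlap, and each stayed past the threshold in all 13 fits that left out 1 library and without the libraries numbered 32 to 36 (adjusted p = 0.0132, 0.0400 and 0.0248 for UBQLN2, UBQLN1 and USP14). TXNL1 and ZFAND5, which bind the proteasome, had -0.15 (adjusted p = 0.0339) and -0.11 (adjusted p = 0.0361) and were not called without those libraries (adjusted p = 0.106 for each). Their calls held in 7 and 5 of the 13 fits that left out 1 library.

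Among the 8 measured E1 enzyme genes, UBA2, a subunit of the E1 of SUMO, fell in F3 (-0.12, adjusted p = 0.0473), a call that held in 1 of 13 fits that left out 1 library (adjusted p up to 0.104). UBA1, the main E1 of ubiquitin, had means of 386.1 and 358.9 CPM (-0.11, adjusted p = 0.0743). RPS27A, which encodes ubiquitin fused to a ribosomal protein, rose from 197.6 to 230.8 CPM (0.22, SE 0.049, adjusted p = 0.0156). The 5 regulators of proteasome genes had 0 calls in F3, and the one with the smallest p was MAFG. In F1 and F2, 0 genes of these 4 lists were called. The ones with the smallest p were UBE3A, the ligase of Angelman syndrome, in the F1 partners (0.13, adjusted p = 0.0707), and SAE1, the other subunit of the SUMO E1, in the F1 E1 enzymes (-0.13, adjusted p = 0.0811).

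Cell type markers moved in F3 as well. The 6 astrocyte markers summed to 7137 to 7800 CPM in controls and 7961 to 9632 CPM in sGC animals, with SLC1A2 called higher, and the 3 inhibitory neuron markers to 536 to 590 and 422 to 557 CPM, with GAD1 and GAD2 called lower. The 6 excitatory neuron markers summed to 9502 to 10250 and 8488 to 11920 CPM with 0 called. The 6 measured microglia markers summed to 195.3 to 264.7 and 232.8 to 277.3 CPM. The 6 meningeal fibroblast markers summed to 178 to 260 and 179.4 to 304.1 CPM. In both of these lists all 6 had higher means and 0 were called. In F2, where the members showed no direction, all 6 astrocyte markers also had higher means in sGC animals, with 0 called. They summed to 8397 to 9768 CPM in F2 controls and 8472 to 10380 CPM in F2 sGC animals. The 3 inhibitory neuron markers summed to 530.7 to 636.6 and 504.5 to 638.7 CPM in F2, 2 with lower means, 1 with a higher mean and 0 called. The part of cell type markers in the values of the 19S subunits and partners was not tested.

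Differences of the sGC effect between generations were tested in a fit over all 36 libraries. The effect on UBE2S differed between F2 and F1 by 0.30 on the log2 scale (F2 minus F1, SE 0.064, adjusted p = 0.0270). This was the 1 member called of 61, where 0.29% of the 11390 genes tested were called and 0.0702% were called higher. UBE2S measured 32.8, 35.1 and 38.5 CPM (lowest, median, highest) in F2 controls and 34.6, 38.2 and 40.1 CPM in F2 sGC animals, a difference within F2 of 0.11 (adjusted p = 0.711). The F2 controls thus lay below all F1 controls, in tables that were normalized separately. Scaled to counted reads alone, the UBE2S control means were 43.2 CPM in F1 and 35.1 CPM in F2. The call was lost in 5 of 36 fits that left out 1 library (F1 control replicate 5, F2 control replicates 2 and 4, F2 sGC replicates 4 and 5), with adjusted p up to 0.0656.

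The next members in F2 against F1 were PSMC4 (0.17, adjusted p = 0.110) and PSMD3 (0.19, adjusted p = 0.116). At an unadjusted p under 0.05 the effect was higher in F2 than in F1 for 15 members, 4 of them among the 5 constitutive beta subunits, and lower for 1, against 7.07% and 9.69% of all genes. Between F3 and F1, 0 members and 0% of genes were called by edgeR, 0 members were called by the likelihood ratio test and DESeq2, and 6 members had an unadjusted p under 0.05 (13.1% of all genes). The smallest p values were those of UBE2S (0.22, adjusted p = 0.142), PSME1 (0.17, adjusted p = 0.294) and PSMB3 (0.12, adjusted p = 0.324). For the 19S subunits the differences between F3 and F1 ran from -0.08 to 0.09, and none had an unadjusted p under 0.05. Between F3 and F2, 0 members and 0% of genes were called by edgeR, with PSMD8 (-0.11, adjusted p = 0.528), PSMC4 (-0.12, adjusted p = 0.535) and PSMD3 (-0.11, adjusted p = 0.577) having the smallest p. DESeq2 and the likelihood ratio test called 0 there too, and 2 members had an unadjusted p under 0.05 (9.08% of all genes). The libraries of each generation enter 2 of these 3 differences, so they are not independent of each other.

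The control means of 3 members differed by more than 1.5-fold in F2 from those of the other tables. Scaled to counted reads alone, PSMC3IP had a control mean of 1.70 CPM in F1, 21.3 CPM in F2 and 1.49 CPM in F3. UBE2H, the E2 of the CTLH ligase complex, had 247.5, 127.9 and 246.6 CPM, and UBE2A had 175.02, 108.18 and 171.03 CPM. No library of F2, control or sGC, reached the range of the others: UBE2H lay at 118.1 to 132.4 CPM in the 12 F2 libraries and at 218.9 CPM or more in all 24 others, and PSMC3IP at 18.02 CPM or more in F2 and at 2.11 CPM or less elsewhere. Those 3 members differed by more than 1.5-fold between F2 and F1 controls and between F2 and F3 controls, and 0 did between F3 and F1. Over all genes with at least 1 CPM, 7.62% differed that much between F2 and F1, 7.31% between F2 and F3, and 0.0913% between F3 and F1. Smaller shifts were more frequent: control ranges did not overlap for 18 members between F2 and F1 (28.6% of genes), 7 between F2 and F3 (23% of genes) and 1 between F3 and F1 (0.639% of genes). The tables were made and normalized apart, so generation and table cannot be told apart. Tests of sGC against control stay within a table.

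**Figure D4:**
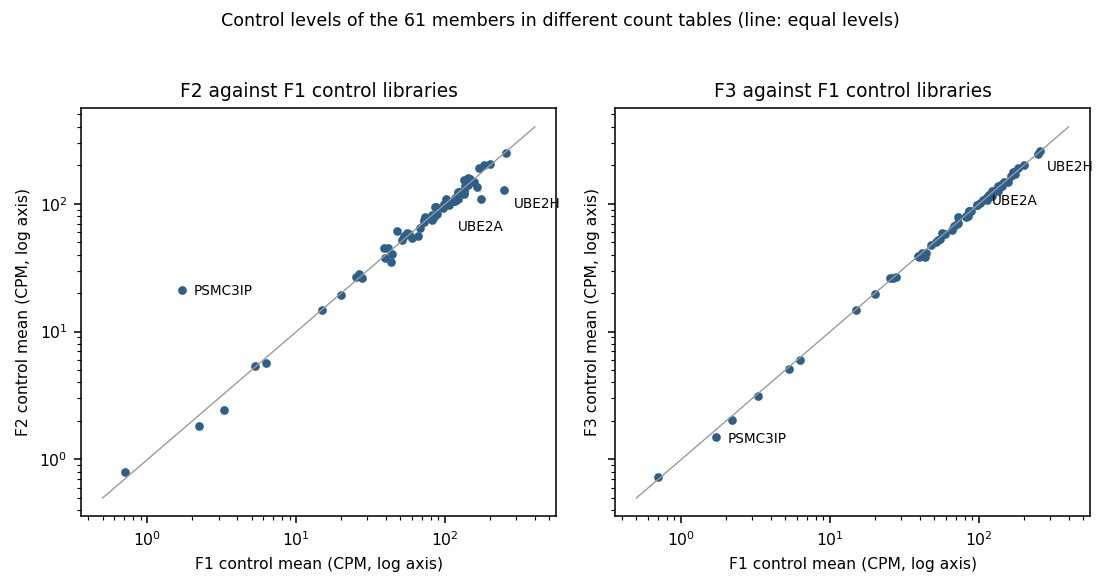
Control mean of each of the 61 members in F2 (left) and F3 (right) against F1, in CPM of counted reads, with both axes on a log scale and the line of equal levels. PSMC3IP, UBE2A and UBE2H leave the line in F2, and no member leaves it by more than 1.5-fold in F3.

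With the group means removed, the constitutive 20S and the 19S subunits tended to vary together from animal to animal, while other members did so less or not at all. Over the 36 libraries the mean Pearson correlation between pairs of constitutive beta subunits was 0.49, that of 20S constitutive pairs 0.34, that of 19S pairs 0.29 and that between 20S and 19S subunits 0.25. Pairs of ubiquitin E2 enzymes had a mean of 0.13, the inducible beta subunits 0.09, and the inducible with the constitutive 20S subunits -0.02, with pairs of both signs. Pairs of assembly factors had a mean of 0.12, and pairs among the activators and inhibitor 0.0049. The mean over all pairs of tested genes was 0.0012. Positive and negative pairs can cancel in such a mean, so it is not a scale for the means of the lists. The pairs with the highest values, named after they were seen, were PSMB1 with UBE2Q1 (0.74), PSMC4 with PSMD2 (0.73), POMP with UBE2V2 (0.73) and PSMC3 with PSME3 (0.71). Those with the lowest values, also named after they were seen, were PSMC4 with UBE2R2 (-0.69), PSMC3 with PSME4 (-0.66), PSMA4 with UBE2Z (-0.64) and PSMB3 with PSME4 (-0.59). These are descriptions. The pairs share libraries, depth and the cell makeup of each sample. F1 sGC replicate 4 and F3 sGC replicate 6 had the lowest means of both the 20S and the 19S list in their groups. These means were -0.17 (20S) and -0.18 (19S) in the first and -0.13 and -0.15 in the second. Correlations without these libraries were not computed.

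**Figure D5:**
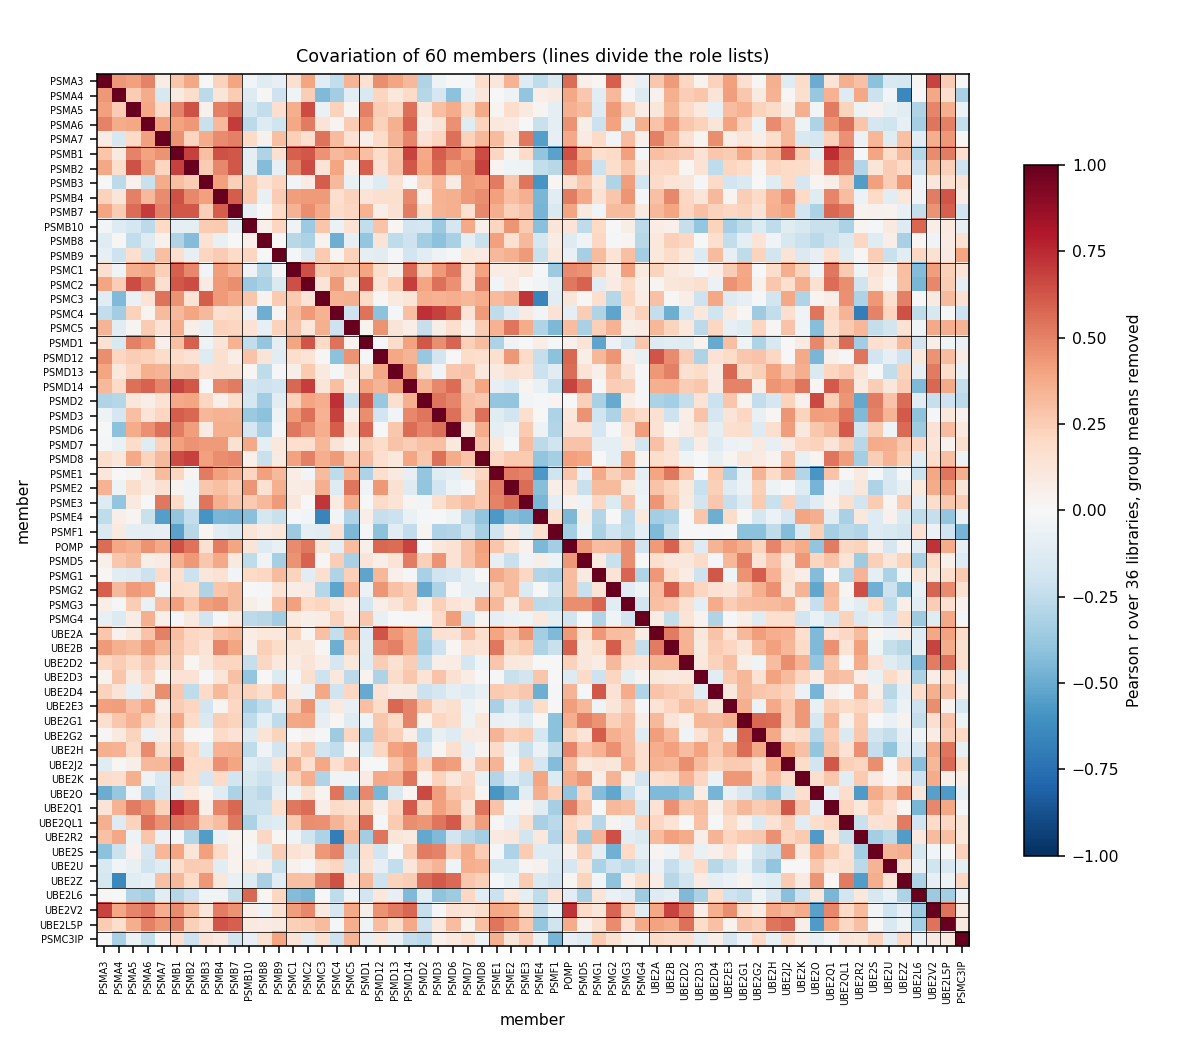
Pearson correlation of every pair of 60 of the 61 members over 36 libraries after the mean of each group was removed, with genes ordered by role and lines between the role lists. The constitutive beta subunits form a red block on the diagonal, with a mean of 0.49, and pairs of inducible with constitutive 20S subunits take both signs.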

How the data were processed

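RNA was sequenced from 36 hippocampi, 1 library each. The values are counts of reads per gene symbol, deposited by the authors in 1 table per generation, and the labels' processing notes name TopHat2 and edgeR. The counting tool, annotation and strand setting are not given in the sources used here. Columns of the authors' own comparison (fold changes and p-values) and the 6 methylation tables, which hold only such comparisons, were not used.

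Groups came from the labels. The 61 members and all lists were chosen with earlier results of these data known. Each generation was fitted alone in edgeR 4.0.16 (R 4.3.3): genes with low counts were removed by filterByExpr, libraries were scaled by TMM, and sGC was tested against control by the quasi-likelihood F test with Benjamini-Hochberg adjustment over all genes tested (threshold 0.05). Differences between generations were contrasts of 1 fit over 36 libraries. CPM values are TMM-scaled within a generation unless stated otherwise, log2 fold changes come from the fit, and SE is the fold change over the root of F. Where levels of genes were correlated, a prior count of 2 was added on the log2 scale. Steps were tested on simulated data with known changes. The animals of a group came from independent mothers, per the study's methods.

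Text names the members past the threshold or, where fewer than 3 passed in a direction, the 3 with the smallest p in it, the 3 with the smallest p of each difference between generations, and a fixed set of catalytic, regulatory and E2 genes. Some genes stay in all counts and medians but are not reported here by name. Alternatives were the likelihood ratio test, DESeq2 1.42.0, DESeq2 size factors, no filter on low counts, all generations in 1 fit, no libraries numbered 32 to 36, a replicate block, and each library left out in turn. RefSeq symbols matched 60 of the 61 members, all but UBE2L5P. No coordinates or sequences are given, since the RefSeq table holds no sequence and the build used for these counts is not stated.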

Additional observations from a re-analysis of the deposited data

Results flagged for a closer look

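The effect of sGC on UBE2S differed between generations, by 0.30 on the log2 scale for F2 minus F1 in the fit over all libraries (adjusted p = 0.0270 by edgeR). UBE2S was lower in 5 of 5 F1 sGC animals and above the control mean in 5 of 6 F2 sGC animals.

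Of 222 groups of values examined, 12 held 1 library far from the others by Dixon's criterion, and chance gives about 1 in 20. Examined were each member named under the rule above, in CPM, and the means of some role lists, in each of the 6 groups. Those lists were the 20S constitutive, 19S and inducible beta subunits, the assembly factors, the activators and inhibitor, and the E2 enzymes of ubiquitin. Library F2 sGC replicate 4 was the highest of its group for PSMD13 (76.6 CPM, others 68.5 to 70.8) and for the mean of the 20S constitutive subunits (0.049 on the log2 scale, others -0.018 to 0.0050). F1 sGC replicate 4, numbered 35, was the lowest for the mean of the 19S subunits (-0.18, others -0.085 to -0.048) and the highest for PSMG1 (30.99 CPM, others 24.6 to 25.3). F2 control replicate 5 was the highest for PSMD8 (87.5 CPM, others 80.7 to 83.0) and the lowest for PSMF1 (64.7 CPM, others 71.4 to 74.2).

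F3 sGC replicate 3 was the highest for PSME2 (31.5 CPM, others 23.7 to 26.6) and for the mean of the activators and inhibitor (0.094, others -0.012 to 0.029). F3 sGC replicate 6, numbered 34, was the highest for PSME4 (56.1 CPM, others 44.0 to 49.1) and the lowest for UBE2QL1 (137.5 CPM, others 156.9 to 168.3). F3 sGC replicate 4 was the lowest for PSMB10 (5.21 CPM, others 6.35 to 7.18), and F2 control replicate 3 the lowest for PSME1 (37.8 CPM, others 40.7 to 42.4).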

How the results depend on the processing

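The direction of the 19S list in F1 and F3 was stable, and calls of single members were not. In F2 leaving out 1 library moved the members' median from -0.0045 to 0.0024 and the 20S median from -0.012 to 0.0078, so both changed sign. Over every alternative run, 13 of 14 subunits of the 19S cap stayed lower in F1, and 13 or 14 did in F3; the median log2 fold change of members stayed within 1 SD of control libraries. The count of members called in F1 was 2. It was 3 with the likelihood ratio test, 5 with DESeq2, 1 without the filter and 8 with all generations in 1 fit. It was 0 both without libraries 32 to 36 and with the replicate block. Leaving out each library gave 0 to 0 in F1 and 0 to 3 in F3. The F3 count of 3 was 4 with the likelihood ratio test, with DESeq2 and with all generations in 1 fit. It was 2 with DESeq2 size factors and 2 without the filter. It was 0 without libraries 32 to 36 and 0 with the block. In F2 each alternative gave 0. Over all genes, 2.08% were called in F1, and 5.26% were with the likelihood ratio test, 5.78% with DESeq2, 7.48% with 1 fit, 0.846% without libraries 32 to 36 and 0.633% with the block. In F3 5.04% were called, and 8.31% were with DESeq2, 2.93% with 1 fit, 2.79% without libraries 32 to 36 and 1.51% with the block. Leaving out 1 library moved the share between 0.491% and 2.995% in F1 and between 2.54% and 5.63% in F3. In F2 the share was 0%, 0.105% with DESeq2 and 0.0526% with the likelihood ratio test.

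The effect of sGC differed between F2 and F1 for 1 member, and for 0 with the replicate block and 0 to 1 when a library was left out. Between F3 and F1 it differed for 0 members, 1 without libraries 32 to 36, and 0 to 1 when a library was left out (1 without F1 sGC replicate 4). Same-numbered sGC and control animals did not in general deviate together (17 pairs, r from -0.37 to 0.30, 3 above 0.1). Weak correlation cannot show that the numbers do not pair animals. The replicate block kept only replicate numbers present in both groups of a generation, so in F1 and F3 it also held fewer libraries. The causes of the changes between fits were not tested.

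Members near 0 changed sign. Without libraries 32 to 36 the log2 fold changes were -0.072 for PSMB8, -0.0035 for PSME2 and 0.031 for UBE2D3 in F1, -0.012 for UBE2B in F2, and 0.020 for PSME2, 0.0046 for PSME3 and -0.024 for PSME4 in F3; with the block PSME2 in F3 was 0.0062. Leaving out each library in turn gave ranges in F1 of -0.13 to 0.097 for PSMB8, -0.15 to 0.031 for PSMB10, -0.022 to 0.010 for POMP and -0.017 to 0.051 for PSME2. In F2 they were -0.014 to 0.0032 for POMP, -0.0071 to 0.025 for PSME3 and -0.012 to 0.013 for UBE2B. In F3 they were -0.065 to 0.10 for PSMB9, -0.053 to 0.030 for PSME2, -0.018 to 0.0089 for PSME3, -0.026 to 0.051 for PSME4, -0.027 to 0.0015 for PSMF1 and -0.045 to 0.0045 for UBE2B. Genes under 10 CPM, such as PSMB8, had SEs above 0.07, and depth limits what can be said of them.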
